A study of Mus musculus with 17 samples.

Results

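Plasma cell-free RNA (cfRNA) was compared between mice kept under artificial gravity in flight and mice kept on the ground. The comparison takes the 6 libraries labelled artificial 1-G (AG) and the 5 labelled ground control (GC), which are 11 of the 17 libraries of the series, chosen by their sample labels. All the mice were wild-type C57BL/6J at 13 weeks of age, and each library came from the plasma of 1 mouse. AG mice lived on the International Space Station on a rotating platform that produced 1-G, and GC mice of the same genetic background stayed on Earth. The gravity load was therefore matched, whereas launch, return, the flight environment and centrifuge housing differed together and cannot be told apart. The remaining 6 libraries, from flight mice in microgravity (MG), entered the statistical fit so that all 3 groups shared one estimate of the spread. RNA was purified from 50 μl of plasma, and 2.5 μl of it went into a library kit made for small RNA, which the submitters chose because the RNA was degraded.

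cfRNA is RNA that blood and tissue cells have released into the plasma, where it is carried by vesicles and proteins. In plasma, red cells and their precursors, platelets and white cells contribute most of the messenger RNA fragments, and a change in the number of cells that release a transcript and a change in the amount each cell releases cannot be told apart. MicroRNAs are cut from hairpins in longer primary transcripts and repress messenger RNAs that pair with their seed (bases 2 to 8), so that microRNAs with the same seed share potential targets. Small nucleolar RNAs (snoRNAs) are released from the introns of host genes, many of them ribosomal protein genes and Snhg genes, and guide the modification of ribosomal RNA.

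The microRNAs below are shown because their own genes, or the genes in which they lie, carried the larger differences between AG and GC. let-7b, which shares the seed of let-7i, is shown beside it because its difference was small in the main test. Neither had an adjusted p under 0.05 in that test. Sequences are the mature RNAs of RefSeq (GRCm38.p6), 5′ to 3′, with the seed in capitals. Of the 40 tested genes with RPKM only whose symbol begins with Mir, 34 matched an entry of that table by symbol. The first group shows let-7i and let-7b, members of one family whose sequences share the seed.

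mmu-let-7i-5p: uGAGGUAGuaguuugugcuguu
mmu-let-7b-5p: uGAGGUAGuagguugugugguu

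The next group holds the erythroid pair miR-451a and miR-144, encoded next to each other on chromosome 11, and miR-484.

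mmu-miR-451a: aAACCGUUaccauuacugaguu
mmu-miR-144-3p: uACAGUAUagaugauguacu
mmu-miR-484: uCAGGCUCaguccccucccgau

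The last group holds microRNAs that lie within genes with counts. The first 4 of them share one seed although they come from Mir17hg (miR-17 and miR-20a) and from Mcm7 (miR-106b and miR-93), and miR-25 of Mcm7 shares its seed with miR-92a of Mir17hg.

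mmu-miR-17-5p: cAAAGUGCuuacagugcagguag
mmu-miR-20a-5p: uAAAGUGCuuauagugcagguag
mmu-miR-106b-5p: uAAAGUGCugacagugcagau
mmu-miR-93-5p: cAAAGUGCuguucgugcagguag
mmu-miR-25-3p: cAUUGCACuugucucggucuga
mmu-miR-92a-3p: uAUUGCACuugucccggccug
mmu-miR-21a-5p: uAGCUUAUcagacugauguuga
mmu-miR-223-3p: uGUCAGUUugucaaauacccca

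Counts per gene summed to 115515 to 277682 per AG library and 84657 to 195103 per GC library. Of these, 86.9% to 91.7% in AG and 76.9% to 83.1% in GC fell on the 4 most abundant genes (Tmem38b, Rn18s-rs5, Polr2m and Lars2). Scaling factors by the trimmed mean of M-values (TMM) were 0.482 to 0.907 in AG and 1.32 to 1.74 in 4 GC libraries, but 0.525 in GC replicate 4, which stood apart from the other GC libraries. Levels below are counts relative to the library total after TMM scaling (CPM), so that the values of 1 library do not sum to a fixed total, and levels are compared between groups and not between genes. The choice of scaling moved the median of all genes, which was -0.21 on the log2 scale (AG minus GC) with TMM and -1.14 with total counts alone. As markers of the sample, all 8 red cell, 5 platelet and 5 neutrophil or monocyte genes listed had counts, whereas Cd3e of the lymphocyte list and Mylpf and Tnnt3 of the muscle list had none in these 11 libraries.

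In total, 272 genes passed the count filter, and 4 of them differed between AG and GC at an adjusted p under 0.05 (1.47% of genes tested). All 4 were higher in AG: Trim39, a ubiquitin ligase of the TRIM family; Hist1h3b, a replication-dependent histone H3 gene; Vmp1, a membrane protein of autophagosome formation; and Bpgm, which makes 2,3-bisphosphoglycerate, the red cell regulator of oxygen release from haemoglobin. At the looser criterion that the study applied (fold change above 1.5 with p below 0.05 before adjustment), 32 genes differed (11.8%), of which 17 were higher in AG (6.25%) and 15 were lower (5.51%). With total counts in place of TMM the split was 4 higher and 109 lower, and with the 4 most abundant genes left out before scaling it was 24 higher and 7 lower.

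**Figure D1:**
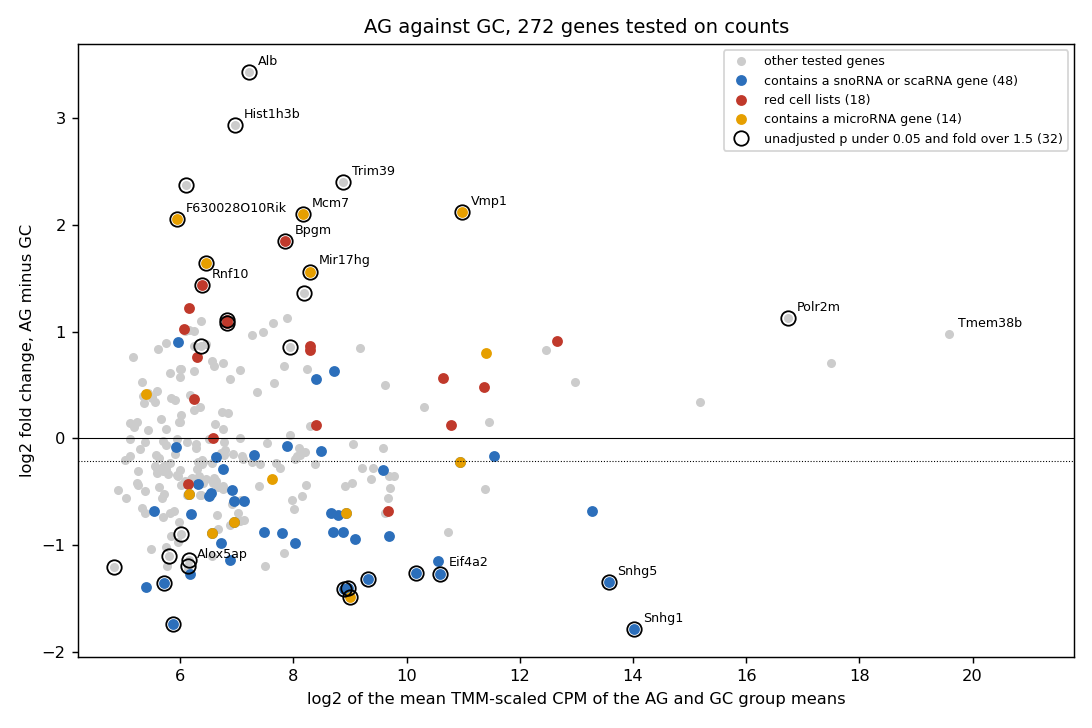
Log2 fold change (AG minus GC, edgeR with TMM scaling) of the 272 genes tested on counts, against the log2 of the mean CPM of both groups; the dotted line is the median of all genes (-0.21). Circles mark the 32 genes past the unadjusted criterion, 17 above 0 and 15 below, with genes that contain microRNAs among the upper ones and genes that contain snoRNAs among the lower ones.

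Trim39 (chr17:36258873-36272247, minus strand, GRCm38) was counted at 525 to 1108 CPM in AG, with a median of 770.2. In GC its values were 109.5, 77.8, 130.4, 311 and 125.2 CPM for replicates 1 to 5. Every AG library lay above every GC library, and GC replicate 4 was the highest of the controls. The log2 fold change was 2.40 ± 0.47 (SE, edgeR adjusted p = 0.011). For the MG group, Trim39 was at 359 ± 212 CPM (SD, n = 6), between the other groups.

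Hist1h3b (chr13:23752267-23752886, plus strand) ranged from 96.2 to 422 CPM in AG with a median of 220.5, which rests on 11 to 39 reads per library. The GC libraries held 21.9, 7.41, 6.21, 100.3 and 20.9 CPM, or 1 to 10 reads. Only GC replicate 4 reached the range of AG. The log2 fold change was 2.94 ± 0.64 (SE, edgeR adjusted p = 0.017). Histone genes have near-identical copies among which the authors' mapping could have divided reads, so that the identity of the copy is uncertain. Of the 6 replication histone genes tested, Hist1h3b and Hist2h2aa2 passed the criterion, both higher in AG (6.25% of all genes tested were higher). Hist2h2aa2 rested on 0 to 22 reads per AG library and 0 to 6 per GC library. Hist2h2aa1 (-0.70 ± 0.97) and Hist1h2bc (-0.54), which were among the 3 with a negative log2 fold change, did not pass it. With the 4 most abundant genes left out before scaling, Hist1h4c, which is not among the 6, was called at 2.88 (edgeR adjusted p = 0.022).

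Bpgm (chr6:34476207-34505613, plus strand) was found at 293 to 479 CPM in AG with a median of 356 and at 65.7, 44.5, 80.7, 160.5 and 154.5 CPM in GC. The groups did not overlap, and the spread within AG was small (363 ± 65.8 CPM, SD, n = 6) relative to the distance from GC (101 ± 53 CPM, n = 5). The log2 fold change was 1.85 ± 0.46 (SE, edgeR adjusted p = 0.033). Bpgm in MG (114 ± 68.8 CPM) was close to the GC mean, and the AG minus MG difference was 1.68 on the log2 scale (edgeR adjusted p = 0.058). The AG minus MG and AG minus GC contrasts share the AG libraries and are not independent. At the unadjusted criterion 36 genes differed between AG and MG (13.2%), 23 of them higher in AG (8.46%) and 13 lower (4.78%), and 12 differed between MG and GC (4.41%), 10 of them higher in MG (3.68%), and no gene passed the adjusted threshold in edgeR in either contrast.

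Vmp1 (chr11:86583865-86683836, minus strand) spanned 1031 to 6105 CPM in AG with a median of 2643. GC libraries were at 445, 690, 596, 1655 and 405 CPM. AG replicates 5 and 6 were the low AG libraries and overlapped with GC replicate 4. The log2 fold change was 2.12 ± 0.51 (SE, edgeR adjusted p = 0.033). Across the 272 genes, 5 did not overlap between the groups (1.84%): Trim39, Bpgm and Rnf10 with higher values in AG (1.1%), and Eif4a2 and Alox5ap with lower ones (0.735%).

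These 4 calls depended on single libraries of both groups and on the scaling. Without GC replicate 1, 2, 3 or 5 no gene passed the adjusted threshold in edgeR, and the unadjusted criterion then gave 40, 26, 22 and 25 genes in that order. The adjusted p over all single-library omissions reached at most 0.072 for Trim39, 0.098 for Hist1h3b, 0.111 for Bpgm and 0.125 for Vmp1. Their log2 fold changes stayed positive in all of these fits, at no less than 2.23, 2.63, 1.65 and 1.85 respectively. Without AG replicate 1 or 3 Vmp1 and Bpgm lost the call, and without AG replicate 4 Bpgm did. With total counts in place of TMM the log2 fold changes were 1.61 for Trim39, 2.22 for Hist1h3b, 1.49 for Vmp1 and 0.99 for Bpgm, and of these 4 Hist1h3b alone kept an edgeR adjusted p under 0.05 (0.047). Without GC replicate 4, 7 genes passed, and DESeq2 on all libraries called 8.

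**Figure D2:**
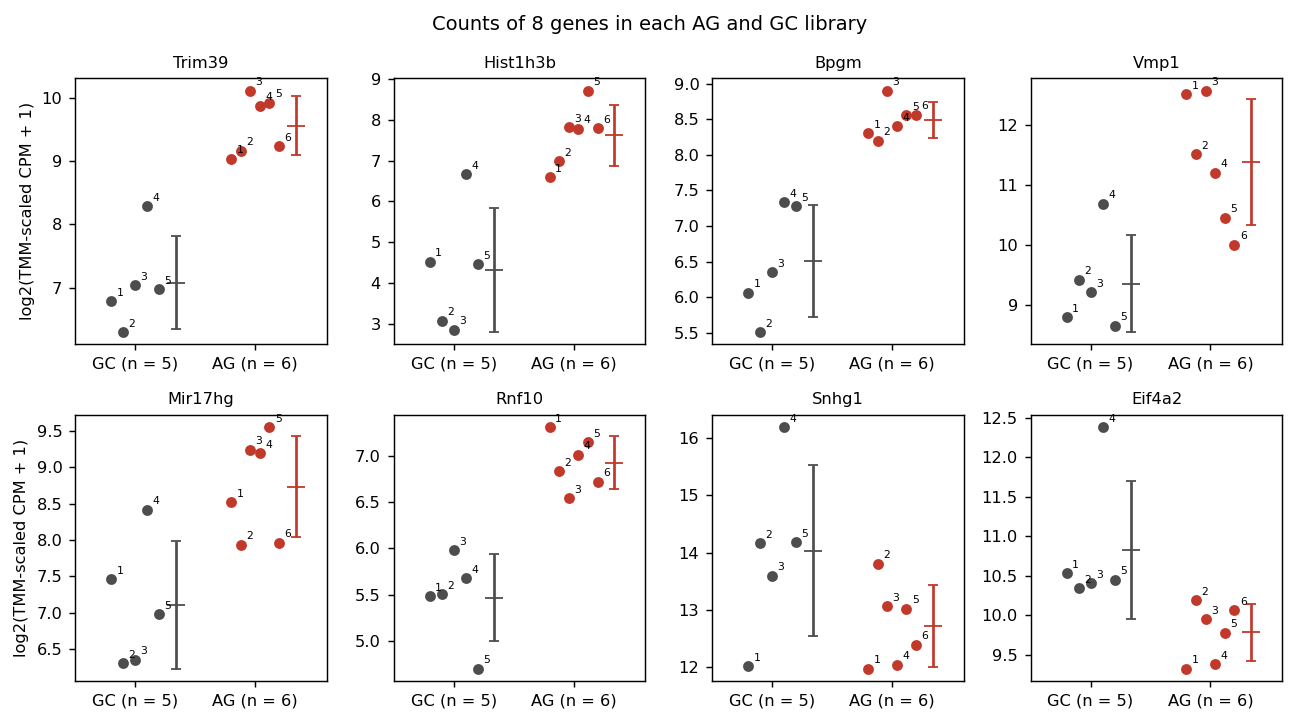
Level of 8 genes in each GC (grey) and AG (red) library as log2(TMM-scaled CPM + 1); numbers beside the points are replicate numbers, and bars give the mean ± SD on this scale. All 6 AG libraries lie above all 5 GC libraries for Trim39, Bpgm and Rnf10 and below them for Eif4a2, and GC replicate 4 is the highest GC library for Trim39, Hist1h3b, Bpgm, Vmp1, Mir17hg, Snhg1 and Eif4a2.

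Under TMM scaling, genes that contain microRNAs were frequent among those higher in AG. Of the 17 higher genes, 5 contained an annotated microRNA gene on the same strand (29.4%), beside 14 of all 272 tested genes (5.15%). They were Vmp1, whose exonic sequence holds Mir21a; F630028O10Rik, which holds Mir223; Mcm7, a subunit of the replicative helicase, which holds Mir25, Mir93 and Mir106b; Mir17hg, the primary transcript of the miR-17 to miR-92a cluster; and Oaz1, the antizyme of ornithine decarboxylase, which holds Mir1982. The lower gene Tlcd1 holds Mir7653, and the median log2 fold change of all 14 microRNA-containing genes was 0.10 against -0.21 for all genes tested. With total counts 1 of the 14 was called higher and 5 lower (median -0.98, beside -1.14 for all genes), while 4 of all 272 genes were called higher and 109 lower. With limma on log2(RPKM + 1) 0 of the 14 were called higher and 3 lower, beside 2 higher and 47 lower of all 272. The microRNA genes inside counted genes had no value of their own in these files: of 682 such microRNA genes 1 had a count or an RPKM above 0, beside 81 of 1466 that lie outside counted genes. Reads of these host genes and of the microRNAs inside them therefore cannot be told apart.

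F630028O10Rik (chrX:96239926-96243636, plus strand) was at 26.1 to 183 CPM in AG with a median of 97.2, and at 29.2, 33.4, 6.21, 40.1 and 12.5 CPM in GC. miR-223, which it contains, is abundant in neutrophils and platelets. AG replicate 6 lay inside the GC range, and its log2 fold change was 2.05 ± 0.56 (SE, edgeR adjusted p = 0.066). Mcm7 (chr5:138164583-138172422, minus strand) was at 131 to 776 CPM in AG with a median of 439.9 and at 168, 126, 24.8, 170.6 and 58.4 CPM in GC. Its log2 fold change was 2.10 ± 0.62 (edgeR adjusted p = 0.10), and AG replicate 6 was again the lowest of its group.

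Mir17hg (chr14:115042879-115046727, plus strand) was at 244 to 750.4 CPM in AG with a median of 476 and at 175, 77.8, 80.7, 341 and 125 CPM in GC. Its log2 fold change was 1.56 ± 0.50 (edgeR adjusted p = 0.15), and the 2 highest GC libraries were replicates 1 and 4. Oaz1 ranged from 52.2 to 219 CPM in AG and from 21.9 to 85.3 CPM in GC, a log2 fold change of 1.64 ± 0.53 (edgeR adjusted p = 0.16). None of these 4 genes passed the adjusted threshold in the main quasi-likelihood fit of edgeR. DESeq2 called F630028O10Rik, Mcm7 and Mir17hg (adjusted p = 0.018, 0.018 and 0.019), and the exact test of edgeR called F630028O10Rik and Mcm7 (0.030 and 0.044). The quasi-likelihood test called F630028O10Rik with the 4 most abundant genes left out (adjusted p = 0.048) and Mir17hg with replicate number as a block (0.036). Of 11 single-library omissions, 3 called F630028O10Rik, 1 Mcm7 and 1 Mir17hg. Of 26 known microRNA host genes listed, 21 had any count and 4 could be tested (Vmp1, Mcm7, Mir17hg, F630028O10Rik), and all 4 were among the 17 higher genes (6.25% of genes tested). For all 4, GC replicate 4 was the highest GC library, and for Vmp1, F630028O10Rik and Mcm7 AG replicate 6 was the lowest AG library. With these 2 libraries left out, a choice made after the data were seen, all 4 had an adjusted p under 0.05 in edgeR (median log2 fold change 2.49). As this omission takes out values near the other group, it is not independent support for these genes. With total counts in place of TMM their median was 1.16 with 1 called, and with limma on log2(RPKM + 1) it was 0.72 with 0 called.

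MicroRNA genes that lie outside counted genes appeared in the files with an RPKM but a count of 0, as did other small RNA genes. Of the 579 genes of all types with an RPKM but no count, 206 had a mean RPKM of at least 1 and were tested with limma on log2(RPKM + 1). None had an adjusted p under 0.05, 35 passed the unadjusted criterion (17%), with 12 higher in AG (5.83%) and 23 lower (11.2%). When RPKM was rescaled by the TMM factors of the counts the split turned to 47 higher and 8 lower of 210 genes. On reads recovered from RPKM, edgeR called 3 of 97 genes at an adjusted p under 0.05: Mirlet7i higher in AG, and Gm23143 and Gm26316 lower. The median log2 difference over all 206 was -0.10, and that of the 49 microRNA genes was 0.43, with 35 positive and 14 negative. Of these 49, Mirlet7i, Mir484, Mir144, Mir451a, Mir221 and Mir182 passed the criterion with higher values in AG and Mir5099, Mir3070b and Mir145a with lower ones. Fold changes on this scale understate differences of genes with low values.

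let-7i (Mirlet7i, chr10:122985640-122985724, minus strand) had the smallest p of the 206 genes. Its RPKM ranged from 85.8 to 925 in AG with a median of 598, and was 125, 123, 53.8, 138 and 55.2 in GC. In 5 of 6 AG libraries it was above every GC library, and only AG replicate 6 fell within the GC range. The log2 difference was 2.28 ± 0.57 (SE, limma adjusted p = 0.075), and without AG replicate 6 it was 2.76 (limma adjusted p = 0.0014). That was the only 1 of 11 single-library omissions with an adjusted p under 0.05, and over the 11 the limma adjusted p reached 0.18.

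let-7b, which has the same seed and differs from let-7i only outside it, had an RPKM of 96.0 to 268 in AG with a median of 182 and of 332, 316, 149, 99.5 and 62.6 in GC. The groups overlapped throughout, with a log2 difference of 0.09 ± 0.53 (limma adjusted p = 0.95). Within a library, the ratio of let-7i to let-7b RPKM does not depend on library scaling: it was 0.893 to 5.04 in AG (median 2.68) and 0.360 to 1.39 in GC (median 0.388). GC and AG overlapped in this ratio only at the low end of AG, and let-7c (Mirlet7c-2) had a log2 difference of 0.17 ± 0.51. After rescaling by TMM the log2 differences were 3.09 for let-7i, 0.90 for let-7b and 0.98 for let-7c, and let-7c then passed the unadjusted criterion while let-7b did not. The family members are similar in sequence, and how reads that match several of them were counted is not given in the sources used here.

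miR-451a and miR-144 are transcribed together in erythroid cells, where miR-451a is the most abundant microRNA of mature red cells. miR-451a (chr11:78073170-78073241, plus strand) had an RPKM of 74.9 to 1576 in AG with a median of 753 and of 122, 283, 24.7, 276 and 65.2 in GC. AG replicate 6 was again the only AG library within the GC range. The log2 difference was 2.26 ± 0.73 (limma adjusted p = 0.090), and without AG replicate 6 it was 2.83 (limma adjusted p = 0.019). Again only this 1 of 11 single-library omissions gave an adjusted p under 0.05, and the limma adjusted p reached 0.23. miR-144 (chr11:78073005-78073070, plus strand) had an RPKM of 5.24 to 47.7 in AG with a median of 22.9 and of 0, 3.95, 3.85, 5.57 and 0 in GC, which rests on at most 17 reads in AG and 2 in GC. Its log2 difference was 2.81 ± 0.80 (limma adjusted p = 0.089). miR-484 (chr16:14159626-14159692, plus strand) was listed at 0 in all 5 GC libraries and in AG replicate 6, and its RPKM in the other AG libraries was at most 8.29, or 3 reads. The groups of all 4 microRNAs overlapped, and 9 of the 206 genes did not overlap (4.37%), of which Mir182 and n-R5s13 were higher in AG (0.971%) and 7, Mir5099 among them, were lower (3.4%).

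**Figure D3:**
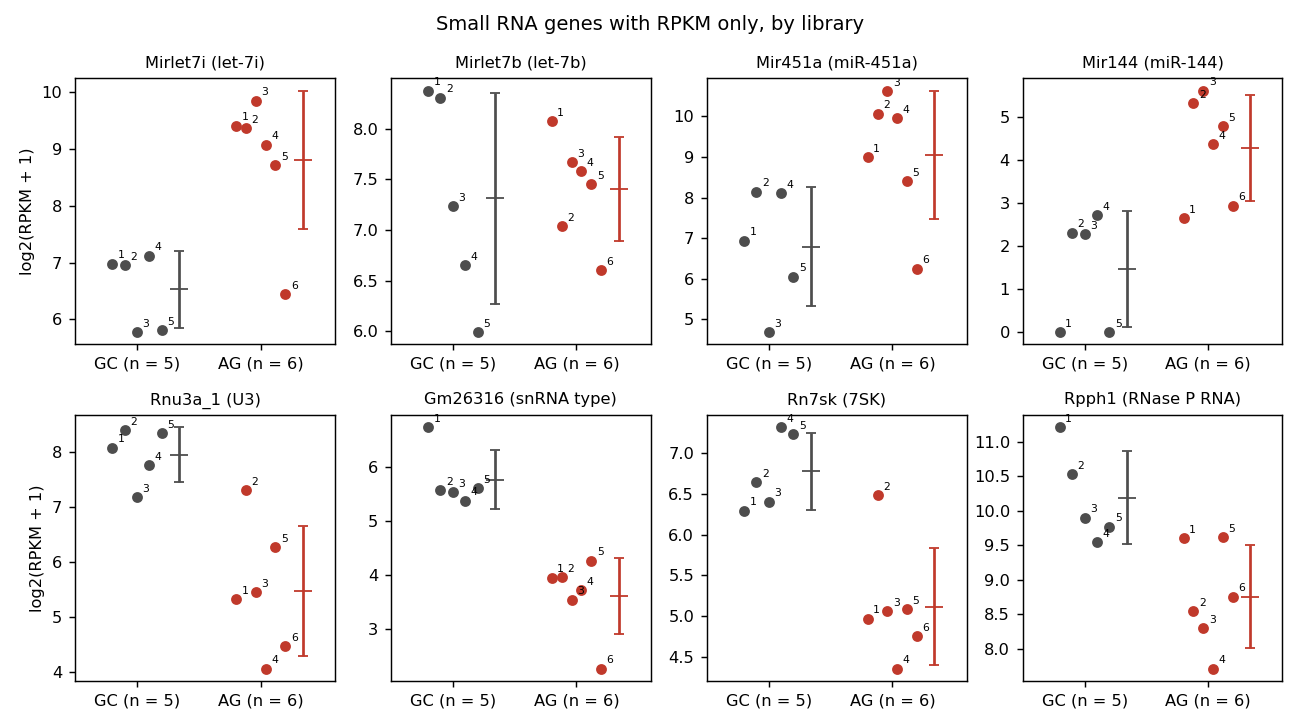
RPKM of 8 small RNA genes as log2(RPKM + 1) in each GC (grey) and AG (red) library, with replicate numbers and mean ± SD. AG replicate 6 lies within the GC range for let-7i and miR-451a, where the other 5 AG libraries lie above all GC libraries; let-7b overlaps throughout; and U3, the Gm26316 gene, 7SK and the RNase P RNA are lower in AG.

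Among the other small RNAs, nuclear RNAs were on the lower side in AG on the RPKM scale. For small nuclear RNA genes as a class this did not hold after rescaling by TMM (25 positive and 25 negative), and the counts here are for RPKM. Of 50 small nuclear RNA genes tested, 10 passed the unadjusted criterion, all lower in AG, and 42 had a negative difference, and of 8 snoRNA genes 4 passed, all lower, with a median log2 difference of -1.48. Over all 206 genes 11.2% were lower at this criterion. U3 (Rnu3a_1), the snoRNA of early ribosomal RNA processing, had an RPKM of 15.7 to 156 in AG with a median of 40.8 and of 268, 333, 143, 214 and 322 in GC. AG replicate 2 was the only AG library above the lowest GC library, and the log2 difference was -2.46 ± 0.66 (limma adjusted p = 0.075). 7SK (Rn7sk), which holds back transcription elongation, was at 19.4 to 88.7 RPKM in AG and 77.6 to 159 in GC, a log2 difference of -1.66 ± 0.55 (limma adjusted p = 0.090). The RNA subunit of RNase P (Rpph1), which trims transfer RNA precursors, was at 208 to 785 RPKM in AG and 749 to 2377 in GC, a log2 difference of -1.44 ± 0.55 (limma adjusted p = 0.16).

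The small nuclear RNA genes named by the smallest p were Gm23143, Gm26316, Gm23793 and Gm23287. Gm26316 had an RPKM of 3.82 to 18.3 in AG and 40.4 to 105 in GC without overlap, and its log2 difference was -2.14 ± 0.64 (limma adjusted p = 0.089). Gm23143 was at 22.2 to 77.7 RPKM in AG and at 140.4, 162, 2809, 4571 and 178 in GC, so that GC replicates 3 and 4 set its mean. Its log2 difference was -3.38 ± 1.00 (limma adjusted p = 0.089), and -5.14 on recovered reads (edgeR adjusted p = 0.020). Gm23287 (-1.64 ± 0.52), Gm23793 (-1.97 ± 0.62) and Snora17 (-2.25 ± 0.71) were lower at the unadjusted criterion, each with a limma adjusted p of 0.090. Gm23793 rests on 0 to 2 reads per AG library and 1 to 2 per GC library, and its log2 difference ran from -4.48 with a pseudocount of 0.1 to -0.43 with one of 10. Genes of this class and 5S ribosomal RNA genes have many near-identical copies, and the copy is uncertain. The ribosomal RNA genes, most of them 5S copies, were on the other side, with 36 of 38 tested genes positive, 4 of them past the criterion and higher in AG (5.83% of all 206 genes). Among them n-R5s10 was listed at 0 in all GC libraries and rested on 0 to 2 reads per AG library.

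The small nuclear RNA genes as a class depended on the scaling. When RPKM was rescaled by the TMM factors of the counts, the median of all genes rose to 0.50 and that of the small nuclear RNA genes to within 0.01 of 0, with 0 higher and 4 lower past the criterion, whereas the microRNA median became 0.98 with 15 higher and 1 lower, and 22 of 37 ribosomal RNA genes were called higher with a median of 1.37. The 7 snoRNA genes tested under that scaling kept a median of -0.85, with 6 negative and 2 called lower. U3 was then at -1.66, Gm26316 at -1.38, 7SK at -0.86 and the RNase P RNA at -0.62, so that these kept their negative sign at a smaller size, and 7SK and the RNase P RNA no longer passed the criterion. Gm23287 and Mir5099, each at -0.84, no longer passed it either. Under that scaling 9 genes, let-7i, miR-451a, miR-144 and miR-484 among them, had an adjusted p under 0.05. The most abundant small RNAs did not pass the criterion in limma: Rny1, a Y RNA that binds the Ro protein, had a log2 difference of -0.67 ± 0.71 and Gm22513 of -0.64 ± 0.73, and both were highest in GC replicate 1. Mir6236 (0.01 ± 0.54) and Rn7s6 (-0.11 ± 0.72) had differences near 0. miR-122, the liver microRNA, was at 94.5 to 904 RPKM in AG and 47.4 to 340 in GC (0.91 ± 0.79, limma adjusted p = 0.62), and its log2 difference of 1.72 after rescaling by TMM and of 1.70 with recovered reads in edgeR passed the unadjusted criterion.

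Red cell genes were on the higher side in AG. Over the lists for globins, heme and iron, red cell membrane, red cell metabolism and the ubiquitin and autophagy genes of reticulocytes, 18 genes were tested, and 4 passed the unadjusted criterion with higher values in AG and none with lower ones (6.25% and 5.51% of all genes tested): Bpgm, Rnf10, Ube2o and Slc25a37. The median log2 fold change of the 18 was 0.79 with 16 positive, against -0.21 for all genes tested. With total counts in place of TMM this median was -0.12, beside -1.14 for all genes. Under that scaling 0 of the 18 were called higher and 2 lower, beside 4 and 109 of all 272 genes. Without GC replicate 4 the median of the 18 was 0.93 with 4 called higher and 1 lower, beside 27 and 9 of all 272. Summed red cell markers were at 9716 to 24862 CPM in AG and 6157 to 18676 in GC, and their part in these differences was not tested.

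Rnf10 (chr5:115241412-115272898, minus strand), a ubiquitin ligase that is high in late erythroid cells, was at 92.3 to 157 CPM in AG with a median of 120.3 and at 43.8, 44.5, 62.1, 50.2 and 25.0 CPM in GC. The groups did not overlap, and the log2 fold change was 1.44 ± 0.40 (edgeR adjusted p = 0.066). DESeq2 (adjusted p = 0.028) and the exact test of edgeR (0.022) called it, whereas with total counts its log2 fold change was 0.51. Rnf10 in MG (42.2 ± 14.7 CPM) was near GC, and the AG minus MG difference was 1.53 (edgeR adjusted p = 0.058). Ube2o, which ubiquitinates proteins during reticulocyte remodelling, was at 81.3 to 281 CPM in AG and 45.9 to 100.3 in GC, with a log2 fold change of 1.08 ± 0.42 (edgeR adjusted p = 0.29). Slc25a37, the mitochondrial iron importer mitoferrin, was at 63.2 to 227 and 40.8 to 100.3 CPM, a log2 fold change of 1.11 ± 0.52 (edgeR adjusted p = 0.39). Mkrn1, which is in none of these lists, was also among the 17 higher genes at 0.86 ± 0.38, and turned to -0.12 with total counts.

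None of the 4 globins passed the criterion in edgeR, and DESeq2 called 1 of them higher, as did edgeR without AG replicate 2, AG replicate 6 or GC replicate 1. Their median was 0.52 with TMM and -0.58, with all 4 negative, with total counts. Hba-a2 had a log2 fold change of 0.91 ± 0.45 (edgeR adjusted p = 0.41), Hba-a1 of 0.56 ± 0.46, Hbb-bs of 0.48 ± 0.50 and Hbb-bt of 0.13 ± 0.50. Within a library the ratio of Bpgm to Hba-a2 reads was 0.0297 to 0.0646 in AG (median 0.0446) and 0.00806 to 0.0515 in GC (median 0.0188), so the groups overlapped. Alas2, the first enzyme of heme synthesis in red cells, was at 0.87 ± 0.50, Epb41, the membrane skeleton protein 4.1, at 0.83 ± 0.45, and ferritin heavy chain Fth1, at -0.68 ± 0.37, had one of the 2 negative values. None of the regulators of erythroid transcription listed reached the count filter.

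**Figure D4:**
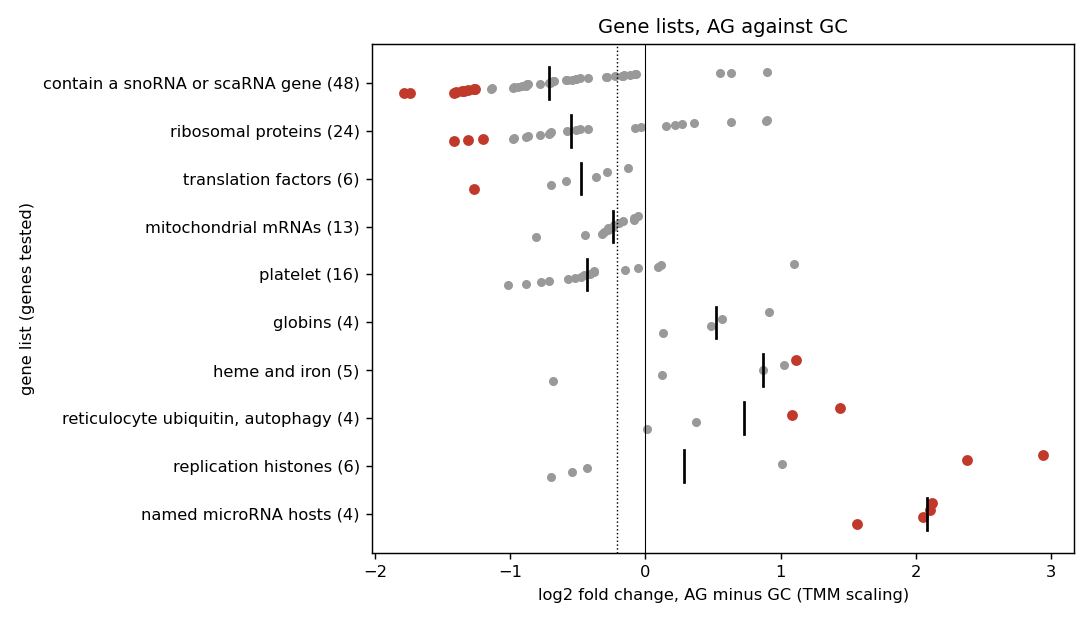
Log2 fold change (AG minus GC, TMM scaling) of each tested gene in 10 gene lists; red points passed the unadjusted criterion, short black bars are list medians and the dotted line is the median of all 272 genes. The medians are 2.08 for the 4 microRNA hosts and 0.52 for the globins, and -0.71 for the 48 genes that contain a snoRNA or scaRNA.

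Genes that contain snoRNAs made up 9 of the 15 genes lower in AG (60.0%) and none of the 17 higher ones, beside 48 of 272 genes tested (17.6%), and under TMM scaling this rested on GC replicate 4. The 9 were Snhg1, Snhg5, Snhg12, Eif4a2, Rpl5, Rps3, Tbrg4, Ckap5 and 2410002F23Rik. The median log2 fold change of the 48 genes was -0.71 with 45 negative. Without GC replicate 4 the median was -0.06 with 28 negative, and 0 of the 48 were called lower and 1 was called higher. Other settings gave more lower calls. Without GC replicate 1 there were 14 of 48, beside 18 of all 272 genes. With total counts in place of TMM there were 33 of 48, beside 109 of all 272. Of these 33, 6 had an adjusted p under 0.05 in edgeR, and the median of the 48 was -1.36, beside -1.14 for all genes. As with microRNAs, 544 snoRNA genes lay inside counted genes and 1 of them had a value of its own, so that host and snoRNA reads cannot be told apart.

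Snhg1 (chr19:8723475-8726443, plus strand), a noncoding host of 8 annotated snoRNAs, was at 4004 to 14362 CPM in AG with a median of 6819 and at 4145, 18428, 12391, 75004 and 18609 CPM in GC. GC replicate 4 exceeded the other GC libraries together, and GC replicate 1 lay at the bottom of the AG range. The log2 fold change was -1.78 ± 0.63 (edgeR adjusted p = 0.24) and -0.84 without GC replicate 4, whereas with total counts it was -2.18 (edgeR adjusted p = 0.0088). Snhg5 (-1.34 ± 0.51) and Snhg12 (-1.26 ± 0.50) were at -0.73 and -0.60 without that library. Eif4a2 (chr16:23107444-23114136, plus strand), a translation initiation helicase that holds 5 snoRNA genes, was at 638 to 1169 CPM in AG with a median of 931 and at 1482, 1294, 1354, 5337 and 1398 CPM in GC. It was the only one of the 9 whose groups did not overlap, and its log2 fold change of -1.27 ± 0.45 (edgeR adjusted p = 0.24) was -0.62 without GC replicate 4. With total counts Snhg5, Snhg12, Eif4a2, Rpl5, Rps3, Alox5ap and Tlcd1 also had an adjusted p under 0.05 in edgeR (0.0062 to 0.041), and without a filter Snhg1 did (0.048).

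Of the 6 other lower genes, all but Tlcd1 had at most 30 reads in any library. Alox5ap (chr5:149264767-149288153, plus strand), which presents arachidonic acid for leukotriene synthesis in white cells, was at 17.5 to 63.2 CPM in AG with a median of 41.7 and at 94.9, 66.7, 149, 80.3 and 104 CPM in GC, or 2 to 14 reads against 8 to 25. The groups did not overlap, and the log2 fold change was -1.19 ± 0.45 (edgeR adjusted p = 0.29) and -1.25 without GC replicate 4. Cd81 (-0.90 ± 0.43), H3f3a (-1.10 ± 0.49), Rpl37a (-1.20 ± 0.54) and Sh3bgrl3 (-1.14 ± 0.52) were also lower at the criterion, each with an edgeR adjusted p of 0.39, as was Tlcd1 (-1.48 ± 0.69, 13 to 80 reads in AG and 20 to 223 in GC), which was -0.54 without GC replicate 4.

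**Figure D5:**
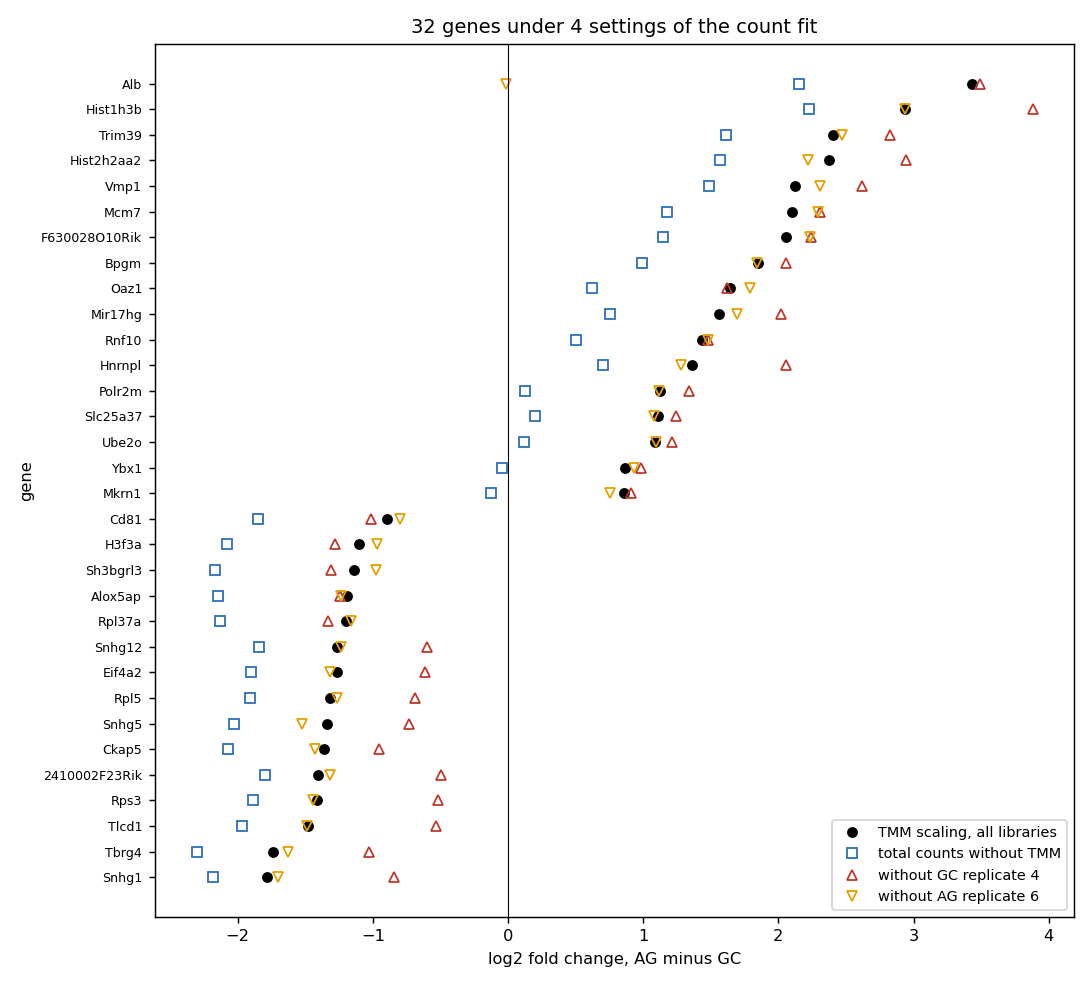
Log2 fold change (AG minus GC) of the 32 genes past the unadjusted criterion under 4 settings of the edgeR fit: TMM scaling with all libraries, total counts without TMM, and TMM scaling without GC replicate 4 or without AG replicate 6. Total counts shift all genes to lower values, the omission of GC replicate 4 moves the snoRNA-containing genes toward 0 (Snhg1 from -1.78 to -0.84), and the omission of AG replicate 6 takes Alb to -0.02.

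Translation genes showed the same dependence. Of 24 ribosomal protein genes tested, Rpl5, Rps3 and Rpl37a passed the criterion, all lower in AG (5.51% of all genes tested were lower), and the list median was -0.55. The 7 ribosomal protein genes without a snoRNA had a median of 0.22 with 5 positive, and without GC replicate 4 the median of the 24 was 0.03. All 6 translation factors tested were negative with a median of -0.48, and Eif4a2 was the only one of the 6 called, beside the same 5.51%. With total counts 10 of the 24 ribosomal protein genes (median -1.08) and 5 of the 6 translation factors (median -1.26) were called lower. Of all 272 genes 109 were called lower under that scaling, with a median of -1.14.

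Of 16 platelet genes tested, none passed the criterion in the main edgeR fit, with a median of -0.43 and 13 negative. Limma on log2(RPKM + 1) called 6 of the 16 lower, beside 47 of all 272 genes. EdgeR with recovered reads joined to the counts called 3 lower, and DESeq2 and edgeR with its size factors each called 1 lower. Without AG replicate 2 or GC replicate 4 edgeR called 2 lower, and without AG replicate 5, GC replicate 1 or GC replicate 5 it called 1 higher. With total counts in place of TMM 9 of the 16 were called lower, beside 109 of all 272 genes. All 16 were then negative, with a median of -1.45 beside -1.14 for all genes. Ppbp, a platelet chemokine, was at 203 to 1928 CPM in AG and 963 to 2693 in GC (-0.88 ± 0.47, edgeR adjusted p = 0.42), and Tmsb4x at -0.48 ± 0.49. Summed platelet markers were at 266 to 2420 CPM in AG and 1124 to 3248 in GC. The 13 mitochondrial mRNAs were all negative and none passed in edgeR, with a median of -0.24 near that of all genes. With total counts 7 of the 13 were called lower (median -1.19, beside -1.14 for all genes), and limma on log2(RPKM + 1) called 1 lower, beside the same 109 and 47 of all 272 genes. mt-Cytb was at -0.17 ± 0.34, mt-Nd1 at -0.45 ± 0.47 and mt-Nd4 at -0.24 ± 0.39. Of 3 myeloid genes tested none passed in the main edgeR fit, and Lyz2 was at 0.01 ± 0.36. Total counts gave 1 lower call among the 3 and limma 1, again beside 109 and 47 of all 272 genes.

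Alb, the liver transcript of serum albumin, was among the 17 higher genes at 3.43 ± 1.44 (edgeR adjusted p = 0.37). AG replicate 6 held 116 of the 131 AG reads, or 1514 CPM, while the other AG libraries held 0 to 46.9 CPM and GC 7.30 to 33.4. Without that library the log2 fold change was -0.02. The summed liver markers were at 0 to 2206 CPM in AG and 37.1 to 100.3 in GC. Polr2m (1.12 ± 0.40), Hnrnpl (1.36 ± 0.55), Hist2h2aa2 (2.37 ± 0.92) and Ybx1 (0.86 ± 0.40), an RNA-binding protein that was -0.04 with total counts, complete the higher genes, with edgeR adjusted p from 0.24 to 0.39.

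Stress lists gave few testable genes. None of the 12 glucocorticoid, 15 p53, 14 interferon or 14 antioxidant genes listed passed the count filter, and of 14 heat shock genes Hspa8 (-0.16 ± 0.51) and Hsp90ab1 (-0.25 ± 0.66) were tested and did not pass the criterion in edgeR. Tsc22d3, the glucocorticoid-induced leucine zipper, was at 0 to 8 reads per AG library and 0 to 6 per GC library. The genes that did not pass the filter were not tested in the main fit. Ttn of the muscle list (0.08 ± 0.66) and Col1a1 of the bone matrix list (0.64 ± 0.65) did not pass in edgeR.

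As shares of all counts, Tmem38b took 56.1% to 74.4% in AG (median 63.0%) and 24.7% to 64.6% in GC (median 55.8%), a log2 ratio of 0.39 (exact two-sided permutation test, p = 0.078, 0.23 adjusted over the 4 genes). Lars2 took 1.83% to 4.74% in AG and 1.80% to 6.16% in GC (-0.61, exact permutation p = 0.11). Polr2m (0.21, exact permutation p = 0.55) and Rn18s-rs5 (-0.26, exact permutation p = 0.50) also overlapped between the groups. In TMM-scaled CPM the log2 fold changes of these genes were 0.98 for Tmem38b, 1.12 for Polr2m, 0.35 for Lars2 and 0.71 for Rn18s-rs5, so that the sign of the last 2 differed from that of their shares. Of the 4, Polr2m passed the unadjusted criterion, and without a filter Tmem38b had an edgeR adjusted p of 0.0002. The smallest p that 6 against 5 libraries allow is 0.00433. GC replicate 1 was the lowest GC library for Tmem38b and the highest for Polr2m and Rn18s-rs5.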

How the data were processed

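Small RNA libraries of plasma cfRNA were sequenced by the authors, who used CLC Genomics Workbench with the mm10 genome to quantify 49585 genes. Deposited counts are unnormalized reads of each gene, the deposited RPKM column is scaled by gene length and mapped reads, and the deposited TPM column was not used. Read trimming, strand and the treatment of reads with several matches are not given in the sources used here. Mapped totals implied by RPKM were 1596032 to 6859728 reads per AG or GC library. For 550 of the 579 genes with RPKM but no count, reads were recovered from RPKM with exon lengths of GENCODE M21 on GRCm38, and 98.2% of values were within 0.05 of a whole number.

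Counts were tested with edgeR 4.0.16 (quasi-likelihood, TMM, filterByExpr, 272 genes, all 17 libraries, no covariate) in R 4.3.3, with Benjamini-Hochberg adjustment, at a biological coefficient of variation of 0.574. RPKM values were tested with limma 3.58.1 on log2(RPKM + 1). Shares of counts were compared by exact permutation in scipy 1.17.1. DESeq2 1.42.0, other scalings, other filters, a replicate block and omission of each library were alternatives, and those with recovered reads, with RPKM rescaled by TMM, and without both AG replicate 6 and GC replicate 4 were chosen after seeing the data. The tests were checked on simulated counts. Named were all genes past the adjusted or the unadjusted criterion, up to 15 with values per direction, up to 4 of the most abundant members of each list, 3 mitochondrial mRNAs and, for RPKM, the 10 genes with the smallest p and the 4 most abundant; other RPKM genes (let-7b, let-7c, miR-451a, miR-122, miR-182, miR-221 and the nuclear RNAs) were named after their values were seen. The comparison and the gene lists were chosen with earlier results of these data known. Libraries of one group differed by more than sampling noise, with a chi-square per degree of freedom of at least 8.29.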

Additional observations from a re-analysis of the deposited data

Results flagged for a closer look

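In 21 of 102 groups of 5 or 6 values, the highest or lowest library stood farther from its nearest neighbour than Dixon's 95% critical value allows. For normally distributed values chance would give about 5.1 such groups, or 1 in 20. The values were taken without logarithms and need not be normal, so that 5.1 is not the number due by chance here. Whether 21 is an excess was not tested. The cases share libraries and are not independent. GC replicate 4 was far above the other GC libraries in TMM-scaled CPM for Snhg1 (75004), Eif4a2 (5337), Tlcd1 (2237), 2410002F23Rik (2117), Rps3 (1996), Vmp1 (1655), Trim39 (311) and Hist1h3b (100.3), and far below them for Sh3bgrl3 (40.1) and, in RPKM, for Gm23793 (1.57). GC replicate 4 thus lay farther from AG than the other GC libraries for Snhg1, Eif4a2, Tlcd1, 2410002F23Rik and Rps3, and nearer to AG for Trim39, Hist1h3b, Vmp1, Sh3bgrl3 and Gm23793.

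GC replicate 1 stood above the other GC libraries in RPKM for Rny1 (204245), Gm22513 (67676), Gm23287 (178) and Gm26316 (105). It also took a low share of counts for Tmem38b (24.7%) and high shares for Polr2m (15.2%) and Rn18s-rs5 (30.9%). GC replicate 2 was high for Oaz1 (85.3 CPM).

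In AG, replicate 6 was high for Alb (1514 CPM), replicate 5 for Ube2o (281 CPM) and replicate 3 for Gm23793 (3.16 RPKM, the one AG library not listed at 0).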

How the results depend on the processing

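Depth and the scaling limit these results: a few genes took most counts, and many tested genes rested on few reads per library. The number of genes with an adjusted p under 0.05 in the count fit, 4, became 8 with DESeq2, 7 with edgeR's exact test and 9 with total counts (1 higher, 8 lower). It became 6 with the 4 most abundant genes left out, 1 in a fit of AG and GC alone and 0 with limma on log2(RPKM + 1). It was 0 with all genes of at least 5 reads, 2 without a filter, 8 without AG replicate 6 and GC replicate 4, and 0 to 7 with 1 library left out. The cause was not tested. The 32 genes past the unadjusted criterion became 764 with all genes of at least 5 reads and 836 without a filter, where more genes were tested, 113 with total counts, 49 with limma, 68 with recovered reads joined to the counts, and 20 to 45 with 1 library left out. For genes with RPKM only, the adjusted calls went from 0 to 3 with recovered reads in edgeR, to 9 after rescaling by TMM, to 4 without AG replicate 6 and GC replicate 4, and to 0 to 3 with 1 library left out.

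Replicate numbers did not pair the samples, since the correlation between AG and GC libraries of the same number was 0.484, 0.334, 0.005, -0.422 and -0.472. With the replicate block the counts of calls were 5 on counts, 30 at the unadjusted criterion and 3 on RPKM only, Alb moved to 0.06, and 1 of 4 globins was called higher.

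Log2 ratios of the Tmem38b share ranged from 0.15 to 0.49 with 1 library left out, the highest (exact permutation p = 0.029) without GC replicate 4, and those of the Lars2 share from -0.88 to -0.44, with -0.79 (exact permutation p = 0.048) without AG replicate 1 and -0.88 (exact permutation p = 0.038) without GC replicate 4.

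These values changed sign: Alb without AG replicate 6 (-0.018, in a range up to 3.71), Mkrn1 with limma (-0.012) and with total counts (-0.12), Ybx1 with total counts (-0.042), and after rescaling by TMM Rny1 (0.15) and Gm22513 (0.18). Mir6236 was -0.012 with the block, 0.39 with recovered reads, 0.83 after rescaling and -0.17 to 0.19 with 1 library left out, and Rn7s6 was 0.38 with recovered reads, 0.017 with the block, 0.71 after rescaling and -0.27 to 0.18 with 1 library left out. No other sign changed among the genes past the criterion and the RPKM genes named by rule, under the alternatives run.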
